A study of Rattus norvegicus with 232 samples.

Results

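Brain RNA of the Lyon hypertensive rat, strain LH/MavRrrc, was compared with that of 7 other classic inbred strains sequenced in the same batches. The LH members are 3 animals, 3 of the 232 samples of the series, chosen by the strain label. The series measured ribosome-depleted total RNA by stranded sequencing in a panel of inbred strains, the Hybrid Rat Diversity Panel, and the gene table used here held 214 libraries of 197 animals of 74 strains. The comparison strains were BN/NHsdMcwi, FHH/EurMcwi, GK/FarMcwi, M520/N, MWF/Hsd, PVG/Seac and WAG/RijCrl, with 3 animals each, so that 24 animals of 8 strains entered the fit. All were naive males by the design text, all were labelled untreated, and the tissue was whole brain frozen in RNAlater. The labels give no age and no blood pressure. The study states, for the strains of its own analysis, that brains were split along the midline and a single side was sequenced, and whether this holds for these animals is not stated. By the batch label, 1 LH animal was sequenced in batch 16 and 2 in batch 17, while batch 15 held 4 animals of the other strains and no LH animal.

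The LH strain was selected in Lyon from Sprague-Dawley rats for high blood pressure, and it also shows raised body weight and raised plasma lipids. The brain takes part in setting blood pressure through the hypothalamus and the brain stem, which steer sympathetic outflow, thirst and the release of vasopressin. FHH/EurMcwi, the fawn-hooded strain, is itself hypertensive, GK/FarMcwi is a model of type 2 diabetes and WAG/RijCrl a model of absence epilepsy, so that the comparison strains are no uniform normotensive control. No Lyon control line is among the 74 strains. An inbred strain holds near-identical animals, so the spread between 3 LH animals is the spread within that strain, and with 8 strains an exact permutation test over strain labels cannot give a p under 0.125. In whole brain, fewer cells of a type and less RNA per cell cannot be told apart.

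Expression is given on the log2 scale of the deposited table, a scale read from its values. The submitters' notes name DESeq2, whose regularized log shrinks differences, so a difference of 1 need not be a doubling of RNA. The files give no counts, so the depth of the libraries is unknown. The median value of a library was between 8.27 and 8.37. The nearest library of each LH animal was another LH library, and this held within strain for 19 of the 24 libraries. The exceptions were all 3 libraries of WAG/RijCrl and the batch 15 libraries of M520/N and MWF/Hsd. The nearest library of each batch 15 exception was another library of batch 15, and whether any label was exchanged was not tested. Eif2s3y and Kdm5d, which lie on the Y chromosome, were above the library's own median in 24 of 24 libraries. Neuron, astrocyte and oligodendrocyte markers were present in every animal, with no value under 10.24 among these genes.

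LH brains differed in a small set of genes. A gene was called where its LH mean differed from the mean of the 7 other strain means at an adjusted p under 0.05 (limma, Benjamini-Hochberg over all 20859 genes) and where, in addition, all 3 LH animals lay above the highest or below the lowest of the 21 other animals. All 3 LH animals lay outside in 197 genes, 0.944% of those tested, of which 105 (0.503%) were higher and 92 (0.441%) lower. Past the 5% FDR were 707 genes (3.39%), with 358 higher (1.72%) and 349 lower (1.67%). Both conditions held in 161 genes (0.772%), with 82 higher (0.393%) and 79 lower (0.379%). The difference exceeded 0.5 in 50 of them and 1 in 5 of them. Each SE and limma p of this fit rests on the spread of animals within strains. The spread between strains does not enter it.

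The share of genes with all 3 animals outside was not particular to LH. The same count over the 8 strains was 305 genes (1.46%) for GK/FarMcwi, 281 (1.35%) for BN/NHsdMcwi, 197 for LH, 148 (0.71%) for PVG/Seac, 109 (0.523%) for FHH/EurMcwi, 101 (0.484%) for MWF/Hsd, 85 (0.407%) for M520/N and 30 (0.144%) for WAG/RijCrl. These strains are each other's comparison, so the counts are not independent and were not tested against each other. The counts of WAG/RijCrl, M520/N and MWF/Hsd rest in part on the libraries that lay nearer to another strain. With WAG/RijCrl left out 197 genes were called in LH (157 of the 161), with M520/N left out 200 (154) and with MWF/Hsd left out 227 (159). Leaving out a comparison strain cannot undo the condition that the LH animals lie outside. A called gene could thus be lost only through its adjusted p. At the edge of the rule, Tacr3, the neurokinin B receptor, lay outside by 0.000169, and Igf2bp3, an RNA-binding protein, fell short of lying outside by less than that. The median gap between the nearest LH animal and the nearest other animal was 0.0579 over the called genes.

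**Figure D1:**
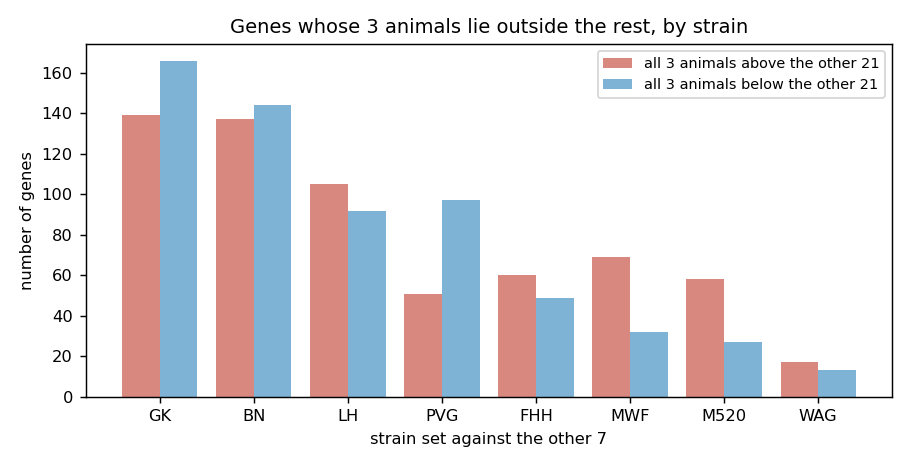
Number of genes (y axis) in which all 3 animals of a strain lay above (red) or below (blue) the 21 animals of the other 7 strains, for each of the 8 strains (x axis). LH had 197 genes, between 281 for BN/NHsdMcwi and 148 for PVG/Seac.

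**Figure D2:**
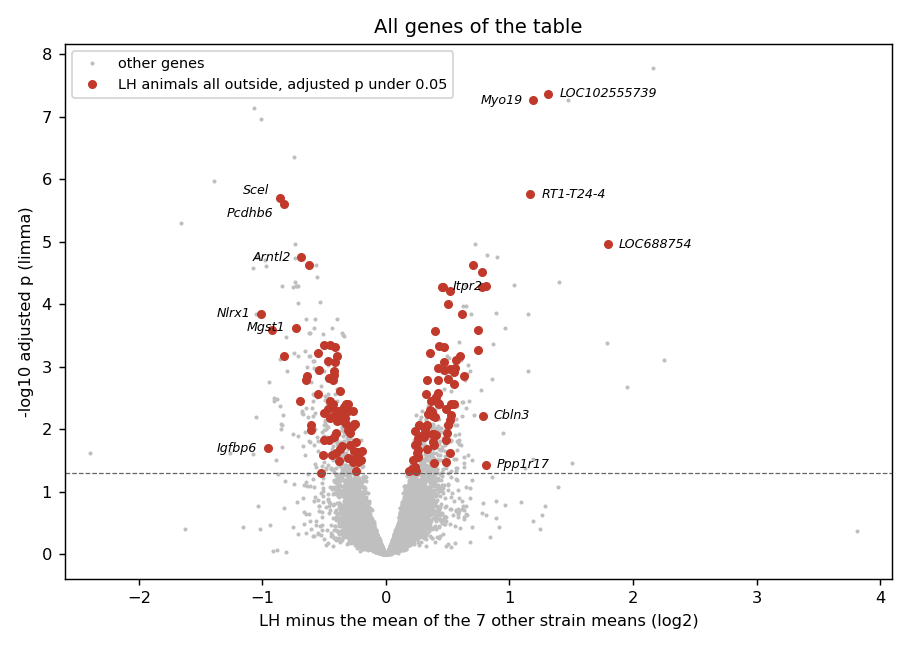
Difference of LH from the mean of the other 7 strain means (x axis, log2) against the size of the limma adjusted p (y axis, -log10), with each point a gene. The 161 called genes are drawn in red, and the dashed line marks an adjusted p of 0.05.

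Myo19, the unconventional myosin carried on mitochondria, had the largest rise among called genes with a gene name. Its log2 expression was 8.93, 8.44 and 8.44 in the 3 LH animals, and in the other 21 animals it ran from 7.15 to 7.65 with a median of 7.42. As the call requires, the LH values lay outside all the others. The strains among the 21 hardly differed from each other, with strain means from 7.32 to 7.50. The difference was 1.19 ± 0.09 (SE, n = 3 and 21; limma adjusted p = 5.4e-08). Within batch 17 the difference was 1.03, and the LH animal of batch 16 was 1.46 above the other animals of that batch. Of the further 66 strains of the table, SS/JrHsd, the Dahl salt-sensitive strain, had the highest mean, 8.37, and LH had the highest of all 74. Myo19 was named after its values were seen, since its mean over the 24 animals was under the median of the table, 8.31. On chromosome 10 its called neighbour is Znhit3, a zinc finger protein, which was lower in LH by 0.30, at 8.88, 8.80 and 8.77 against 9.00 to 9.27. Of the RefSeq transcripts of Znhit3 1 went the other way, at 5.96, 5.66 and 5.57 in LH against at most 5.53. Aatf, on the same chromosome and involved in transcription and ribosome assembly, was higher at 9.51, 9.46 and 9.42 against 8.96 to 9.42, a difference of 0.24 (limma adjusted p = 0.047).

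RT1-T24-4, a nonclassical class I gene of the rat major histocompatibility complex (MHC), was the largest rise among called genes with a gene symbol and a mean above the table's median. The LH animals had 9.35, 9.48 and 9.32, and the other animals ran from 7.18 to 9.13 with a median of 8.25. The nearest animal was of M520/N. The difference was 1.17 ± 0.11 (SE; limma adjusted p = 1.7e-06), and LH was again the highest of the 74 strains, ahead of HXB29/Ipcv at 9.28. RT1 genes have near-identical copies that differ between haplotypes, so reads can be split among them. In an earlier table counted on Ensembl genes, which held 23 of the 24 animals, the difference of RT1-T24-4 was 0.48. Itpr2, the type 2 inositol trisphosphate receptor that releases calcium from the endoplasmic reticulum in astrocytes, was 10.75, 10.66 and 10.80 in LH against 10.09 to 10.47 elsewhere, with a median of 10.28. Its difference was 0.45 ± 0.06 (SE; limma adjusted p = 5.2e-05), and both of its RefSeq transcripts had all 3 LH animals above the other 21. The same held for the single transcript of RT1-T24-4 and for 1 of 2 of Myo19.

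Nlrx1, a mitochondrial member of the NOD-like receptor family that dampens antiviral signalling, had the largest fall among called genes. Its log2 expression was 8.38, 8.69 and 8.56 in LH, and 8.96 to 9.98 in the other animals with a median of 9.65. By the rule of the call no other animal came down to the LH range, and the nearest was the FHH/EurMcwi animal of batch 15. The difference was -1.01 ± 0.14 (SE; limma adjusted p = 0.00014). Of the 3 RefSeq transcripts of Nlrx1 none had the LH animals outside, although all 3 were lower on average. BUF/MnaMcwi, which has 1 animal in the table, at 8.60, was the lowest of the 66 further strains. Mgst1, a microsomal glutathione transferase, was 7.93, 7.86 and 7.99 in LH against 8.26 to 9.15, with a median of 8.69. Mgst1 was called, so its groups did not overlap by rule, and the difference was -0.73 ± 0.10 (SE; limma adjusted p = 0.00024).

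**Figure D3:**
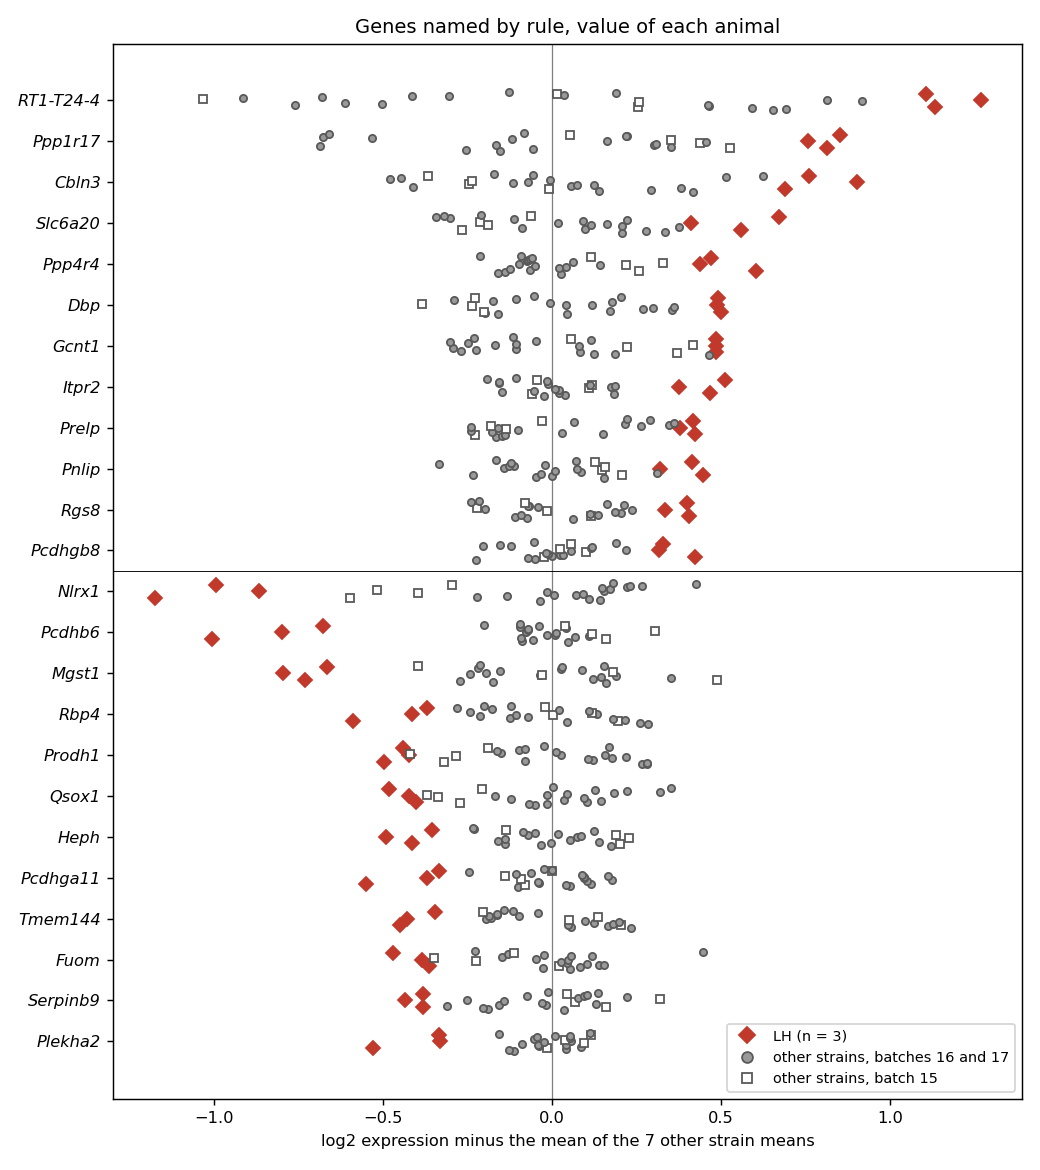
Log2 expression of the called genes named by rule, each gene on a line of its own and given as the difference from the mean of the 7 other strain means (x axis, log2). Red diamonds are the 3 LH animals, grey circles the other animals of batches 16 and 17, and open squares the 4 animals of batch 15. In each gene the 3 LH animals lay on one side of all 21 others, as the call requires.

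Slc6a20, a carrier that takes up proline, was 10.36, 10.21 and 10.47 in LH against 9.46 to 10.18, higher by 0.55 (limma adjusted p = 0.0012). Prodh1, the mitochondrial proline dehydrogenase that starts the breakdown of proline, was 10.09, 10.16 and 10.14 against 10.16 to 10.86, lower by 0.45 (limma adjusted p = 0.0066). Both were called, in opposite directions. Higher too were Gcnt1, which branches O-linked glycans (0.48, with 9.49 in all 3 LH animals against a highest other value of 9.47), and Pnlip, a triglyceride lipase known from pancreas (0.39, with 8.88, 8.75 and 8.84 against at most 8.74). Hk2, an inducible hexokinase, was higher by 0.49 and the scavenger receptor Cubn by 0.53. Lower were Rbp4, the carrier of retinol in plasma (-0.46, with 9.20, 9.37 and 9.41 against at least 9.50), Heph, a ferroxidase that lets iron leave cells (-0.42, with 8.66, 8.58 and 8.72 against at least 8.84), and Fuom, a fucose mutarotase (-0.41, with 8.05, 8.03 and 7.95 against at least 8.07). Slc25a43, a mitochondrial carrier, was lower by 0.42 and Arg1, arginase, by 0.43. Hk2, Cubn, Slc25a43 and Arg1 were chosen after their values were seen. No RefSeq transcript of Gcnt1, Rbp4, Heph, Slc25a43 or Arg1 had all 3 LH animals outside. Those of Fuom, Hk2 and Cubn did, and 1 of 2 of Pnlip. In Heph and in Arg1 1 transcript was higher on average.

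Ppp4r4, a regulatory subunit of protein phosphatase 4, was 10.50, 10.33 and 10.36 in LH against 9.68 to 10.22, higher by 0.50 ± 0.09 (SE; limma adjusted p = 0.0015), and no further strain reached the lowest LH animal. Prelp, a proteoglycan of connective tissue, was higher by 0.41, with LH animals from 9.88 to 9.92 and a highest other animal at 9.86. Fzd4, a receptor for Wnt ligands and norrin, was 8.49, 8.40 and 8.47 against 7.73 to 8.27, higher by 0.47 (limma adjusted p = 0.00084). Among the falls, Qsox1, which forms disulphide bonds in secreted proteins, was lower by 0.44, Tmem144, a membrane protein, by 0.41, Serpinb9, an inhibitor of granzyme B, by 0.40, and Plekha2, an adaptor that binds phosphoinositides, by 0.40. Plekha2 had the clearest gap of these, with LH at 8.94, 9.13 and 9.13 against 9.31 to 9.58. The lowest other value of Qsox1 was 9.33, next to an LH range of 9.22 to 9.30. No RefSeq transcript of Ppp4r4, Prelp, Qsox1, Tmem144, Serpinb9 or Plekha2 had all 3 LH animals outside, while that of Fzd4 did. Of the 4 transcripts of Tmem144 1 was higher on average. Bdnf, the neurotrophin whose transcription follows neuronal activity, was 8.96, 9.02 and 8.94 in LH against 9.14 to 9.64, with a median of 9.32. It was lower by 0.37 ± 0.08 (SE; limma adjusted p = 0.0070), and like Fzd4 it was chosen after its values were seen.

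Several called genes were expressed at low levels and were chosen after their values were seen. Igfbp6, which binds insulin-like growth factor 2, was 6.12, 6.44 and 6.36 in LH against 6.63 to 7.93, a difference of -0.96 ± 0.23 (SE; limma adjusted p = 0.020). Scel, sciellin, was 5.21, 5.19 and 5.37 against 5.72 to 6.38, and Aurkb, the mitotic aurora kinase B, was 5.44, 5.64 and 5.64 against 6.04 to 6.97. Sh2d7, an SH2 domain protein, was 3.53, 3.57 and 3.34 against 2.40 to 3.12. Of the called genes 43.5% were above the median level of the table, 34.1% of those that were higher and 53.2% of those that were lower. Symbols that name only a locus made up 39 of the 161, or 24.2%, against 24.3% of all tested. The locus symbols with the largest rises were LOC688754 (1.80, with 6.80, 6.50 and 6.39 in LH against at most 6.06), LOC102555739 (1.31) and LOC102549385 (0.78), and those with the largest falls were LOC120100725 (-0.92), LOC120097026 (-0.64) and LOC100360856 (-0.62). LOC102555739 had the widest gap of all called genes, 0.797, at 3.29, 3.52 and 3.49 against 1.94 to 2.49. In the earlier Ensembl table its difference was 0.10 (limma adjusted p = 0.62), and that of LOC120100725 was -0.57.

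The 10 lists of blood pressure, metabolic, glutathione, MHC and interferon genes had 195 genes in the table, of which 2 were called, RT1-T24-4 and Mgst1, a share of 1.03% near the 0.772% of all genes. Of the 195 genes 22 (11.3%) were past the 5% FDR against 3.39% of all, 16 of them higher, and most of these were MHC genes. In the renin-angiotensin list none of 13 genes was past the FDR, and with batch as a covariate, a fit that put 11.4% of all genes past the FDR, Mas1 (lower) and Lnpep (higher) were. Agt, the angiotensin precursor, was 12.42, 12.10 and 12.06 in LH against 11.97 to 13.14 (difference -0.26, limma adjusted p = 0.50), and Agtr1a, the main angiotensin II receptor, was 4.46, 4.41 and 4.27 against 4.08 to 4.98 (difference -0.19, limma adjusted p = 0.43). The groups overlapped in both. The list's smallest p was that of Mas1, the receptor for angiotensin-(1-7), at 7.66, 7.85 and 7.79 against 7.83 to 8.34, with a difference of -0.31 ± 0.08 (SE; limma adjusted p = 0.050, just over the threshold).

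Of 16 genes of vasopressin, mineralocorticoid and sodium handling, 1 rose, where 1.72% of all genes did, and with batch as a covariate 3 rose (Sgk1, Stk39 and Wnk1) and Avpr1a fell, where 5.9% of all genes rose and 5.54% fell. This was Wnk1, a kinase that sets the activity of sodium and potassium chloride cotransporters, at 13.22, 13.25 and 13.30 in LH against 12.88 to 13.23, higher by 0.25 ± 0.06 (SE; limma adjusted p = 0.013). A single other animal, of M520/N in batch 15, reached into the LH range, and no further strain mean of the table did so. Avp, vasopressin, was 6.65, 6.98 and 6.45 against 6.33 to 8.23, a difference of -0.60 ± 0.33 (SE; limma adjusted p = 0.39). No gene was past the FDR among 7 natriuretic peptide genes, 18 genes of catecholamine synthesis and adrenergic receptors, 19 genes of energy balance or 20 genes of lipid and cholesterol metabolism. Their smallest adjusted p values by limma were 0.24 for Npr3, the clearance receptor of natriuretic peptides, 0.11 for Adrb3, an adrenergic receptor, 0.068 for Npy5r, a neuropeptide Y receptor, and 0.055 for Abca1, the cholesterol efflux pump. Th, tyrosine hydroxylase, differed by -0.14 (limma adjusted p = 0.73). With batch as a covariate the genes past the FDR included Npr2 and Npr3 of the natriuretic list, Adra2c of the catecholamine list, Igf2 and Npy5r of the energy balance list and Abca1 and Srebf1 of the lipid list, so the absence of genes past the FDR in these lists depends on that choice. Without the 4 animals of batch 15, in which LH has no animal, Mas1, Wnk1, Lnpep, Stk39 and RT1-CE1 were called as well, and the count over the lists was 7, where 2.2% of all genes were called.

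Of 21 genes of vascular tone 1 fell past the FDR, Ephx2, where 1.67% of all genes fell. Ephx2 encodes the soluble epoxide hydrolase that breaks down vasodilator epoxides. It was 7.04, 7.57 and 7.56 in LH against 7.17 to 9.02, with a median of 8.49, and all 3 GK/FarMcwi animals lay in the LH range. The difference was -1.06 ± 0.14 (SE; limma adjusted p = 0.00014). In the glutathione transferase list 1 gene of 20 rose and 2 fell past the FDR, with Gstm7 higher by 0.28 and Gstt3 lower by 0.42 beside Mgst1, against 1.72% and 1.67% of all genes. Of 19 interferon-stimulated genes 1 rose, Ifit3 by 0.55 (limma adjusted p = 0.0020), and 2 fell, Ifit1 by 0.70 and Oas1b by 0.50, and in Ifit3 the groups overlapped. With batch as a covariate 3 vascular genes, 5 glutathione transferase genes and 4 interferon genes were past the FDR, against 11.4% of all genes.

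Of the 42 genes of MHC class I, class II and antigen processing, 13 rose and 1 fell past the FDR, against 1.72% and 1.67% of all genes, and 31 differences were above 0. The median difference of the list was 0.235 against 0.0125 over all genes. Those that rose were RT1-T24-4, RT1-T24-3, the class I genes RT1-A2, RT1-CE1, RT1-CE3, RT1-CE4, RT1-CE5 and RT1-CE11, the class II genes RT1-Da, RT1-Db1 and the class II chaperone Cd74, the class II activator Ciita, and Tap1, which moves peptides to class I molecules. RT1-A1 fell by 0.47. RT1-CE1 was 6.66, 6.75 and 6.86 in LH against 4.40 to 6.97, so that its range overlapped. The MHC differs in gene content and sequence between haplotypes of inbred strains, so a level here can also reflect how reads were assigned among copies, which was not tested.

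Of 24 genes of the circadian clock 3 were called higher in LH and 1 lower, where 0.393% and 0.379% of all genes were. The lists of clock, cerebellar, immediate early, protocadherin and leukocyte genes that follow were drawn up after values had been seen and are given as a description, with no test of a list. Their counts cannot be read as an excess over the shares of all genes. Dbp, a transcription factor under direct clock control, was 11.30, 11.29 and 11.30 in LH against 10.42 to 11.17, with a median of 10.80. The difference was 0.49 ± 0.11 (SE; limma adjusted p = 0.011). Ciart, a repressor in the clock loop, was 8.47, 8.30 and 8.35 against 7.58 to 8.27 (difference 0.47, limma adjusted p = 0.00048), and Per3, a period gene, was 9.66, 9.58 and 9.69 against 9.10 to 9.57 (difference 0.31, limma adjusted p = 0.011). Arntl2, a paralogue of the activator Bmal1, was lower at 5.31, 5.63 and 5.49 against 5.96 to 6.46 (difference -0.68, limma adjusted p = 1.8e-05). The nearest other animal was the same GK/FarMcwi animal for Dbp, Ciart and Per3. Past the FDR were 4 higher and 1 lower, against 1.72% and 1.67% of all genes, and with batch as a covariate 6 higher and 2 lower, against 5.9% and 5.54%. None of the 3 transcripts of Dbp and none of the 2 of Per3 had the LH animals outside, and 1 of Per3 was lower on average. The single transcript of Ciart had them outside. The labels used here give no time of day at death, so time of death and strain cannot be told apart.

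Clock activators bind the E-box, CACGTG, which reads the same on both strands. The 250 bases before the RefSeq start are printed for 3 genes that were higher, with each E-box in capitals: Ciart because it holds the most E-boxes of the clock genes that were called, Dbp as a clock gene with none in this window, and Myo19 for the size of its rise. The sequences are those of RefSeq on GRCr8, read 5′ to 3′ on the strand of the gene, at chr2:186112247-186112496 (minus strand), chr1:105312006-105312255 (plus strand) and chr10:70250332-70250581 (plus strand).
Ciart: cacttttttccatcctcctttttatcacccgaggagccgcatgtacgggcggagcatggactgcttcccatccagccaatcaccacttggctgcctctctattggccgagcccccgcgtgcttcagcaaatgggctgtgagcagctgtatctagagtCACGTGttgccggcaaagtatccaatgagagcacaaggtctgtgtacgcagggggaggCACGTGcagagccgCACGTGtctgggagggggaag
Dbp: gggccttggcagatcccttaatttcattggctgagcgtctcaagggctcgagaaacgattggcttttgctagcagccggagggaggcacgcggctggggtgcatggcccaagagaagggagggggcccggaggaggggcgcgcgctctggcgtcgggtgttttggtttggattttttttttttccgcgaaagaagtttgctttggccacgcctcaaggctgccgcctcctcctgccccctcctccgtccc
Myo19: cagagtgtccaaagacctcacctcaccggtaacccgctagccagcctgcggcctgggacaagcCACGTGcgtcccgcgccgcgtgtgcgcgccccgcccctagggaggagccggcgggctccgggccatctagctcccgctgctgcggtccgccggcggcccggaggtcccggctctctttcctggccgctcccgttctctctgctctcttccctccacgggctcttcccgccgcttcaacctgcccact
The E-boxes of Ciart began 93, 35 and 21 bases before the start, and that of Myo19 began 187 bases before it. An E-box was in this window in 10 of the 57 genes called higher that have a window (17.5%), in 2 of 49 called lower (4.08%) and in 1163 of all 14875 tested genes with a window (7.82%). The D-box, TTATGTAA, to which Dbp binds, was in 1 of the 57, Pcdhb8, in none of the 49 and in 81 of all tested (0.545%), with both strands searched. Such a match is a description of the letters in the window and not a binding site.

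Of 27 genes of cerebellar neurons 4 were called in LH, all of them higher (0.393% of all genes), and 6 were past the FDR, all higher (1.72% of all genes). Cbln3, a cerebellin secreted by granule cells, was 10.27, 10.49 and 10.34 in LH against 9.10 to 10.21, with a median of 9.57, and differed by 0.78 ± 0.16 (SE; limma adjusted p = 0.0061). Ppp1r17, a phosphatase inhibitor of Purkinje cells, was 9.79, 9.73 and 9.83 against 8.29 to 9.50, with a median of 9.03, and differed by 0.81 ± 0.21 (SE; limma adjusted p = 0.037). Rgs8, a G-protein regulator rich in Purkinje cells, was 13.02, 12.95 and 13.01 against 12.37 to 12.85 (difference 0.38, limma adjusted p = 0.0061). All 3 genes were called and so had groups apart by rule, as did Barhl2, a neuronal homeobox gene, at 6.41, 6.40 and 6.50 against 5.47 to 6.25. Of the list 21 genes were not past the FDR, and all 27 differences were above 0, with a median of 0.36 against 0.0125 over all genes. With batch as a covariate 16 of the 27 were past the FDR, all higher, where 5.9% of all genes were higher, and without batch 15 7 were called, all higher, where 1.19% of all genes were. At the transcript level none of 3 of Ppp1r17 and none of 7 of Rgs8 had the LH animals outside, with all of them higher on average. The list's mean level was 9.97 to 10.00 in the LH animals and 9.35 to 9.94 in the others. All 11 hindbrain Hox genes were below 0 in LH, with a median of -0.30 and none past the FDR, and their mean level was 3.14 to 3.94 in LH against 3.48 to 4.22. How much cerebellum or hindbrain each dissected sample held is not given, and its part in these results was not tested.

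None of the 10 neuron, 8 astrocyte, 8 oligodendrocyte, 9 endothelial and pericyte, 7 choroid plexus, 7 meningeal, 6 olfactory bulb, 6 pituitary and pineal or 7 liver and kidney genes was past the FDR, where 3.39% of all genes were. With batch as a covariate Map2, Aqp4, Aldh1l1, Col3a1 and Slc6a13 were, where 11.4% of all genes were. The choroid plexus list differed within LH itself, with a mean level from 8.58 to 9.37 over the 3 animals. Of 8 blood genes 1 rose past the FDR, where 1.72% of all genes did. This was Hbb-b1, higher by 0.67, with LH inside the range of the others. In the blood list 3 differences were above 0 and 5 below, with a median of -0.067. Of 9 microglia markers 1 was called higher, where 0.393% of all genes were. This was Csf1r, the receptor that microglia need to survive, at 11.95, 11.88 and 11.97 against 11.36 to 11.80 (difference 0.33, limma adjusted p = 0.0085). The median difference of the microglia list was 0.005, and its mean level of 9.29 to 9.41 in LH lay within the 8.95 to 9.52 of the others.

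Of 35 leukocyte and myeloid genes 8 were called higher and 4 lower, against 0.393% and 0.379% of all genes. As the list was drawn up after values had been seen, its count cannot be read as an excess over those shares. Higher were the integrins Itgal, at 6.70, 6.39 and 6.52 against 5.49 to 6.26, and Itgax, with the lectin receptor Clec4a1, the complement receptor C5ar2, the platelet and leukocyte protein Plek, the myosin Myo1f and Csf1r among them. Lower were Siglec8, a sialic acid-binding receptor, Skap1, a T cell adaptor, Mmp9, a matrix metalloproteinase, and Arg1. Itgam, the CD11b integrin, rose by 0.72 (limma adjusted p = 1.1e-05) with 2 animals of M520/N in the LH range. The mean level of the list was 6.44 to 6.53 in LH and 6.31 to 6.46 in the others.

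Of 18 immediate early genes, which neurons transcribe within minutes of activity, 3 fell past the FDR (1.67% of all genes) and 1 was called (0.379%). All 18 differences were below 0, with a median of -0.45 against 0.0125 over all genes. Fosb was the gene called, at 6.31, 6.23 and 6.43 in LH against 6.51 to 7.74 (difference -0.69 ± 0.13, SE; limma adjusted p = 0.0035). Egr2 fell by 0.89 and Egr3 by 0.44, and in both the groups overlapped. Fos itself was 8.20, 8.02 and 8.39 against 7.91 to 9.58, with a difference of -0.82 and a limma adjusted p of 0.067. With batch as a covariate 10 of the 18 fell past the FDR, where 5.54% of all genes fell, Fos among them (limma adjusted p = 0.0058). The list's mean level was 8.63 to 8.74 in LH and 8.63 to 9.47 in the others, where 1 GK/FarMcwi animal was as low as LH. How the animals were handled before death is not given in the labels and its part was not tested.

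**Figure D4:**
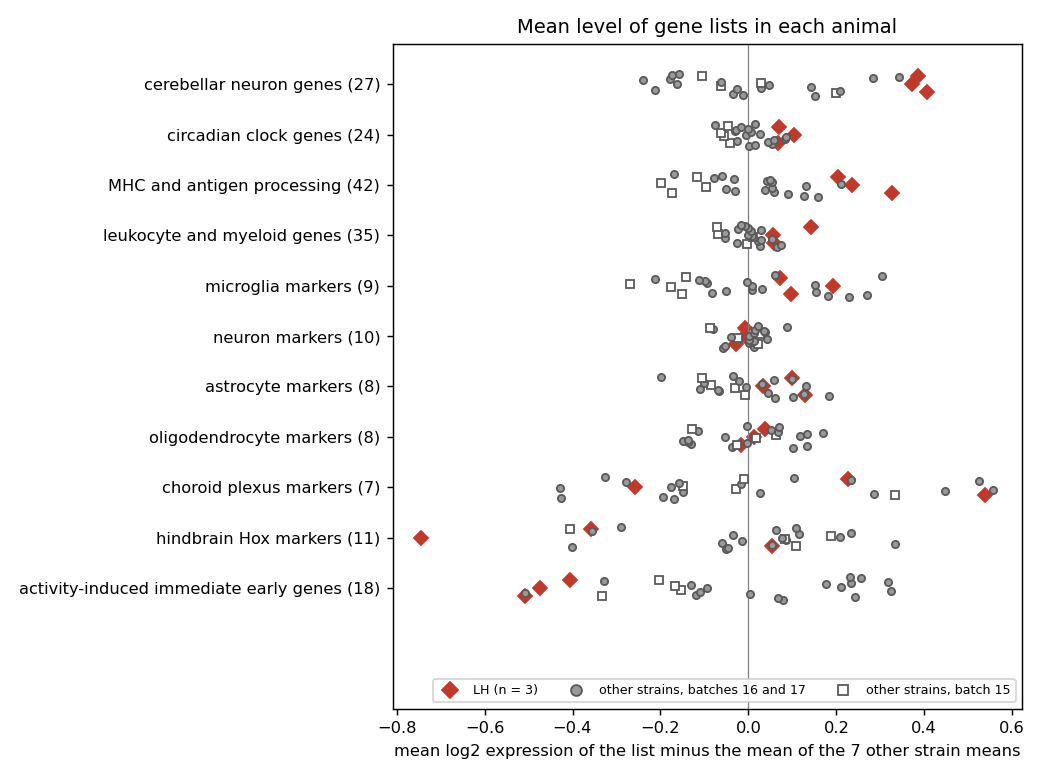
Mean log2 expression of each gene list in each animal (x axis, as the difference from the mean of the 7 other strain means), with the number of genes in brackets. Red diamonds are the 3 LH animals, grey circles the others of batches 16 and 17, and open squares those of batch 15. Cerebellar neuron genes lie above the other animals in all 3 LH animals, and neuron and oligodendrocyte markers lie among them.

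Clustered protocadherins, adhesion proteins with which neurons tell their own branches from others, moved in both directions. Of 36 genes 8 rose and 7 fell past the FDR, against 1.72% and 1.67% of all genes, and 2 were called higher and 4 lower, against 0.393% and 0.379%. Pcdhb6 was 7.45, 7.66 and 7.78 in LH against 8.26 to 8.77, with a median of 8.44. The gap was wide, the other 7 strain means ran only from 8.37 to 8.52, and the difference was -0.83 ± 0.08 (SE; limma adjusted p = 2.5e-06). LH had the lowest Pcdhb6 of the 74 strains, followed by SR/JrHsd at 7.84 and SS/JrHsd at 7.88. Pcdhb8, its neighbour, was 7.75, 7.64 and 7.65 against 6.96 to 7.33, higher by 0.52, and Pcdhb9 was lower by 0.29. In the gamma cluster Pcdhga11 was lower by 0.42, Pcdhga8 by 0.34, and Pcdhgb8 was higher by 0.36. Pcdhga1 had a difference of 1.47 (limma adjusted p = 5.4e-08) without being called, since 1 GK/FarMcwi animal, at 7.64, was above the LH values of 7.58, 7.58 and 7.46. These genes are near copies of each other, so reads can be shared among them and single members may be uncertain. How reads were assigned was not tested.

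Chromosome 18 had the highest share of called genes. Of 498 tested genes placed there on GRCr8 12 were called, or 2.41%, against 0.728% of all 18401 placed genes, and 6 of the 12 were protocadherins. Among the rest were Csf1r and Gpr17, a receptor of oligodendrocyte precursors, which was 11.39, 11.52 and 11.45 in LH against 10.93 to 11.30. Chromosome 1 held 24 called genes of 2235 (1.07%). In all 23 of the 134 placed called genes fell into 10 runs in which a further called gene lay within 5 tested genes. How many would do so with calls spread at random was not worked out, so the runs are a description. The longest runs were the 2 groups of protocadherins and a group on chromosome 2 with Slc22a15, Casq2 and Vangl1, all 3 higher. Casq2, the calcium store protein calsequestrin 2, was 7.75, 7.56 and 7.81 against 6.83 to 7.50, and Vangl1, a planar polarity protein, was 8.97, 9.00 and 8.98 against 8.56 to 8.89. Neither RefSeq transcript of Vangl1 had the LH animals outside, and 1 of the 2 was lower on average.

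The 66 strains outside the comparison were not used to choose these genes. In 74 of the 161 called genes LH had the most extreme mean of all 74 strains. In 44 genes no further strain had a mean at or beyond the nearest LH animal, in 78 genes 1 to 5 further strains did, and in 39 genes 6 to 20 did, with a median of 2. RT1-T24-4, Myo19, Pcdhb6, Ppp1r17, Ppp4r4, Plekha2, Qsox1, Fuom and Prodh1 were among the 44. Slc6a20 (12 strains), LOC120100725 (13) and Slc25a43 (17) were at the other end. These strains were sequenced in other batches as well, so a strain and its batch cannot be told apart here.

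Other strains, hypertensive ones among them, shared some of the LH side. SS/JrHsd had a mean beyond the 21 animals on the LH side in 49 of the 161 genes, SHR/OlaIpcv in 22, SHRSP/A3NCrl in 22, and the normotensive WKY/NCrl in 16. The number over the 66 strains ran from 5 to 58 with a median of 16, and the 58 were of LE/Stm, with 1 animal. Among the 46 strains with 3 or more animals 49 was the highest. SHR/OlaIpcv and SHRSP/A3NCrl, with 2 animals each, are not among these. SR/JrHsd, the Dahl salt-resistant partner of SS/JrHsd, had 39. RGD1564308, Slc25a43, Vangl1 and Znhit3 were the 4 genes in which SS/JrHsd, SHR/OlaIpcv and SHRSP/A3NCrl all lay on the LH side. No such count was made for other sets of strains, so these genes cannot be tied to hypertension. The strains are related to different degrees, and no test was made of these counts.

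**Figure D5:**
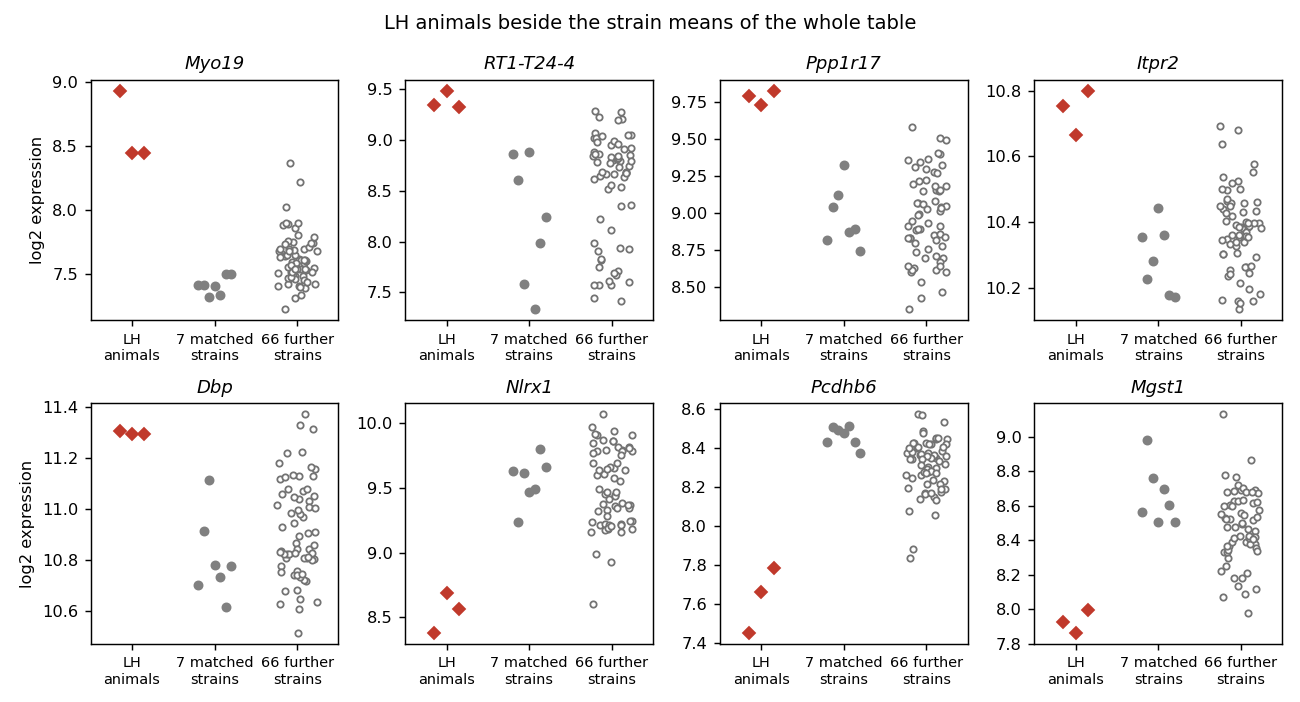
Log2 expression (y axis) of selected genes in the 3 LH animals (red diamonds), in the 7 comparison strains (grey, 1 mean each) and in the 66 further strains of the table (open circles, 1 mean each). Myo19 in LH, at 8.44 to 8.93, lies above the highest further strain mean of 8.37.

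The number of called genes depended on the unit and on the animals. With 1 mean per strain in place of 1 value per animal, 5 genes passed the FDR, namely Myo19, Pcdhb6, Aurkb, LOC102555739 and LOC102555576. That fit sets LH against the spread between the means of the other strains. Without batch 15, 458 genes were called and all 161 were among them. Batch 15 holds no LH animal, so leaving it out cannot undo the condition that the LH animals lie outside. Without LH replicate 1, 2 or 3 the genes past the FDR were 261, 333 and 404, and 85, 87 and 95 of the 161 were called again. Of the genes described one by one, Aatf, Casq2, Dbp, Egr2, Fuom, Gcnt1, Hk2, Igfbp6, Itgax, Pnlip, Ppp1r17, Prelp, Qsox1, Slc22a15, Vangl1 and Wnk1 were not past the FDR whichever of the 3 LH animals was left out. Bdnf, Csf1r, Egr3, Myo1f and Per3 were not past it without replicate 1 or 3, C5ar2, Pcdhb9, Serpinb9, Slc25a43 and Tacr3 without replicate 1 or 2, and Gpr17 without replicate 2 or 3. Hbb-b1, Pcdhga8, Plek, Prodh1 and Rgs8 were not past it without replicate 1, Cbln3 and Clec4a1 without replicate 2, and Cubn, Mmp9 and Znhit3 without replicate 3. Myo19, RT1-T24-4, Nlrx1, Pcdhb6, Mgst1, Itpr2, Ciart, Fosb and Barhl2 were past it each time. This tally leaves out Gstm7, Gstt3, Ifit1, Oas1b, Igf2bp3 and, of the MHC list, all genes but RT1-T24-4. Of the genes named by rule, Prelp, Pcdhgb8, Heph, Serpinb9, Plekha2, Wnk1 and Csf1r were not past it in batch 17 alone, where 2 LH animals stood against 9 animals of 6 strains and WAG/RijCrl had none.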

How the data were processed

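RNA was measured in whole brain from 24 rats of 8 strains. The deposited values were read as log2, normalised across libraries by the authors, from their range and medians. The submitters' processing notes name cutadapt 1.9.1, Bowtie2 2.3.4.3, HISAT2 2.1.0, StringTie 1.3.5, RSEM 1.3.1 and DESeq2, and the steps behind the version 7.1 RefSeq table, with its genome build, are not given in the sources used here. The 73 spike-in features were left out, leaving 20859 of 20932. No filter on low values was applied. LH was compared with the unweighted mean of the 7 other strain means by limma 3.58.1 in R 4.3.3, two-sided, with strain as the only term. On simulated data with 100 genes changed by 0.5, 83% passed the FDR and 71% were called. A further 100 changed by 1 all passed, and 10 unchanged genes passed. All changed genes were above the median level. In the unchanged genes the simulated LH equalled the mean of the other strains. The 10 therefore do not show how many genes pass through ordinary differences between strains. Strains and batches came from the labels.

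The members and lists were chosen with earlier results of these data known. Named by rule were, of called genes above the table's median level with a gene symbol, the 12 largest differences each way, of locus symbols 3 each way, and from each pathway list the called genes or the smallest adjusted p. Every other gene named in the text was chosen after its values were seen. Positions and promoter sequences came from RefSeq on GRCr8. RefSeq transcripts and an earlier Ensembl gene table were read for comparison. The Ensembl table held 23 of the 24 animals, and in it 115 of the 161 called genes were matched by symbol. The depth is unknown, and the number of animals limits the precision. Some genes of the lists are not reported here by name.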

Additional observations from a re-analysis of the deposited data

How the results depend on the processing

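Of 707 genes past the 5% FDR, 161 called, 197 outside and 2 called in the pathway lists, these counts moved by over 1.5 times under the following settings. With batch as a covariate 2387 genes were past the FDR. Without batch 15 the counts were 1615, 458, 577 and 7. In batch 17 alone, with 2 LH animals against 9 of 6 strains and no WAG/RijCrl, 329 genes were called, of which 72 were among the 161, with 2905 outside and 9 in the pathway lists. With 1 mean per strain 5 genes were past the FDR, 5 were called and 0 were in the pathway lists, while 1407 genes had an unadjusted p under 0.05 in limma, 21 of them in the pathway lists. Without the genes under the median level the counts were 194, 67 and 93, from 10429 genes tested. The pathway count was 6 without BN/NHsdMcwi, 5 without GK/FarMcwi and 4 without MWF/Hsd. Leaving out 1 animal at a time gave 261 to 837 genes past the FDR, 111 to 210 called, 200 to 420 outside and 2 to 4 in the pathway lists, with 4 without LH replicate 3 and without MWF replicate 1. The strain-mean fit had fewer values per test, and its spread was that between the other 7 strain means. The cause of these moves was not tested.

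With the replicate number as a block 885 genes were past the FDR and 172 were called, the 161 among them. The outside condition was that of the main fit, so these calls could only come from its 197 genes outside. Samples of different strains with the same number correlated on average by 0.06 in their deviations from strain means. Those with different numbers correlated by -0.03, those of the same batch by 0.03 and those of different batches by -0.02. Whether the numbers pair the animals was not tested. Centred libraries gave 160 called genes (136 of the 161), quantile normalisation 163 (137), and the earlier Ensembl table, an alternative added after seeing the data, 84 called in both of 115 matched. Of the 39 genes named by rule none changed direction under any setting. Most of them were called, and in a called gene leaving out animals, strains or a batch cannot change the direction. The stable direction under those settings therefore follows from the rule. In 32 the adjusted p no longer passed with 1 mean per strain, in 12, 10 and 9 without LH replicate 1, 2 and 3, and in 7 in batch 17 alone. Mas1, Npr3, Adrb3, Npy5r and Abca1 were not past the FDR in the main fit, so they could not lose it. With 1 mean per strain, only Pcdhb6 and LOC102555739 of the genes named by rule passed. The calls of Ppp1r17 and Prelp were lost under 6 settings each and those of Gcnt1 and Qsox1 under 5. The table has no counts, so no limit from depth could be set.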
